A study of Mus musculus with 9 samples.

Results

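Cytosolic ribosomal proteins are the protein components of the cell's main ribosome, and 42 genes that encode them or their close paralogs were measured among 20405 named genes. The members were taken by gene symbol: Rpl or Rps, a number and at most 1 of the letters a, x, l or y with a further number, plus Rplp0, Rplp1, Rplp2 and Rpsa. Of the 42 genes, 25 carry large subunit names and 17 small subunit names, and 7 are minor paralogs (Rpl3l, Rpl7l1, Rpl10l, Rpl32l, Rpl39l, Rps4l and Rps27l). Of ribosomal protein genes outside these 42, Rpl36al is given for comparison, and others, among them Rpl22l1, were not analysed here. The RNA came from C57Bl6 mouse embryos of stage E11.5, from the aorta-gonad-mesonephros (AGM) region, where blood cells emerge from the endothelium of the aorta. Sorting used CD144, the endothelial adhesion protein VE-cadherin, and CD45, a phosphatase of blood cells. HSPC are the CD144+CD45+ stem and progenitor cells, HC the CD144-CD45+ blood cells and EC the CD144+CD45- endothelial cells, with 3 arrays a group; the labels name no genotype, transgene or treatment for any of them. Whether replicates stem from different embryo pools is not stated, so p-values reflect the variation among these samples only, part or all of which may be technical. Nanogram amounts of RNA were amplified and hybridised to Affymetrix mouse gene arrays, of which the labels name 2 types without saying which sample went on which. Values are log2 expression on a scale that the authors normalized to be shared by all arrays, so a change of all ribosomal protein mRNAs together with total RNA would not be seen, and in such bulk samples fewer cells of a type and less RNA per cell cannot be told apart.

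The sorted populations carried the markers of their labels. The mean log2 level over 6 endothelial markers was 8.17 to 9.82 in HSPC, 5.02 to 5.93 in HC and 10.64 to 10.89 in EC, and that over 6 leukocyte markers was 9.21 to 10.29 in HSPC, 10.98 to 11.09 in HC and 5.57 to 5.66 in EC. HSPC and HC also carried macrophage markers (8.24 to 9.99 in HSPC, 10.66 to 10.78 in HC, 4.82 to 5.23 in EC, over 6 genes). The mean over 6 neutrophil markers was 5.85 to 6.31 in HSPC, 9.93 to 10.37 in HC and 4.42 to 5.56 in EC, and 1 of the 6, Mpo, was high in HSPC too (9.85, 10.88 and 10.60, against 6.43, 4.98 and 5.15 in EC). Erythroid markers, over 6 genes, ranged from 7.97 to 8.35 in HSPC, 7.88 to 8.52 in HC and 7.50 to 8.60 in EC, and so overlapped between all 3 groups. The 9 arrays had medians between 5.41 and 5.51.

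A cytosolic ribosome is built from a small subunit, which reads the mRNA, and a large subunit, which joins amino acids and holds the exit tunnel for the new protein. Most of its proteins are needed in equal numbers, with more copies of the stalk proteins Rplp1 and Rplp2, and their mRNAs in mammals typically begin with a 5' terminal oligopyrimidine tract, a C followed by a run of C and T in the DNA, through which the mTOR kinase and the RNA-binding protein Larp1 control their translation as a group. Ribosomal protein genes are of interest in blood formation because loss of 1 copy of several of them causes Diamond-Blackfan anaemia in humans. A few members have paralogs that are made mainly in particular tissues, such as Rpl3l in striated muscle and Rpl10l and Rpl39l in male germ cells.

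The start sites of the members whose values turn the results follow, to show how the pyrimidine tract sits in each. Beside them stand Rps10, Rps6 and Rplp2, picked by hand, for which no difference was called. All of these have a C followed by C or T letters at the annotated start, and they do not stand for all uncalled members. Sequences are from RefSeq on GRCm38.p6, on the strand of the gene. The first 20 letters lie before the annotated start and the other 25 from it on. A tract is a C followed by at least 6 letters that are each C or T. Capitals mark only the longest tract of a window, or the first of equal length. A further tract stands in lower case at the end of the first window of Rpl10a and at the beginning of that of Rps27l.
Rpl10a, first start, chr17:28328451-28328495 (+): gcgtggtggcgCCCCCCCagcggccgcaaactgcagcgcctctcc
Rpl10a, second start, chr17:28328545-28328589 (+): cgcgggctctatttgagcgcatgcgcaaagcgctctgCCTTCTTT
Rpsa, chr9:120127746-120127790 (+): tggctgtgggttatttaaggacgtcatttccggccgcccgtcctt
Rps27l, first start, chr9:66946066-66946110 (+): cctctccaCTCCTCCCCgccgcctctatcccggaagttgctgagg
Rpl39l, chr16:10170208-10170252 (+): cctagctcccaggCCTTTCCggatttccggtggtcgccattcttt
Rps10, chr17:27635220-27635264 (-): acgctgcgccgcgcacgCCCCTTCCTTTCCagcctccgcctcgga
Rps6, chr4:86857343-86857387 (-): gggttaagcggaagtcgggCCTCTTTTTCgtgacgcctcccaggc
Rplp2, chr7:141447631-141447675 (+): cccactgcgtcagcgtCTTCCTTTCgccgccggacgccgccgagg
In Rps10, Rps6 and Rplp2 the tract runs across the annotated start. In Rpl10a tracts lie both before and after the first start, and only after the second. In Rpl39l the tract ends just before the annotated start, and the window of Rpsa holds none. Among other uncalled members, Rpl26, Rps2 and Rps3 had no such tract at any start. The second start of Rps27l and both starts of Rpl3l, not printed, hold none. Whether the tract goes with the differences was not tested.

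Of the 42 members, 35 had a start site in the RefSeq table. Such a tract stood within the 45 letters of at least 1 start in 23 of them (65.7%), against 23.7% of 17492 protein-coding genes and 16 of 69 genes for mitochondrial ribosomal proteins (23.2%). A C at the annotated start itself with 4 following letters all C or T was found in 9 members (25.7%), in 2.67% of protein-coding genes and in 0 of 69 mitochondrial ribosomal protein genes. The tract was sought on the transcribed strand alone, since it belongs to the mRNA. Over the 300 letters around each start, on both strands and each counted without regard to overlap, CCGGAAG, a core that Ets factors such as GABP bind, was present in 16 of 35 members (45.7%), in 26 of 69 mitochondrial ribosomal protein genes (37.7%) and in 12.9% of protein-coding genes. GGGCGG, the core bound by Sp1, was present in 21 members (60.0%), in 49.3% of the mitochondrial set and in 49.2% of protein-coding genes, and CACGTG, which Myc binds, in 5 (14.3%), 7.25% and 8.91%. These are matches of letters and not measured binding.

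The mRNAs of these 42 members, which are not all cytosolic ribosomal protein genes, differed little between the 3 populations, with a small number of exceptions. Rpl10a and Rpsa were higher in HSPC than in EC, and Rpl10a, Rpsa and Rps27l were higher in HC than in EC. Rpl39l also passed the test, as lower in HSPC than in HC and higher in HC than in EC, but all its group means lay under the background level of the arrays, and it is not tested when dim probe sets are left out. The threshold was a Benjamini-Hochberg adjusted p of 0.05 over all named genes in limma. It was passed by 2 of 42 members between HSPC and EC (2 higher and 0 lower), where 16.5% of all genes passed (8.55% higher and 7.94% lower). Between HSPC and HC it was passed by 1 of 42 (0 higher and 1 lower), where 14.6% of all genes passed (7.01% higher and 7.61% lower), and between HC and EC by 4 of 42 (4 higher and 0 lower), where 27.4% did (14.8% higher and 12.6% lower). The arrays of the groups did not overlap for 5 members between HSPC and EC, against 28.2% of all genes, for 9 between HSPC and HC, against 29.6%, and for 9 between HC and EC, against 39.2%.

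**Figure D1:**
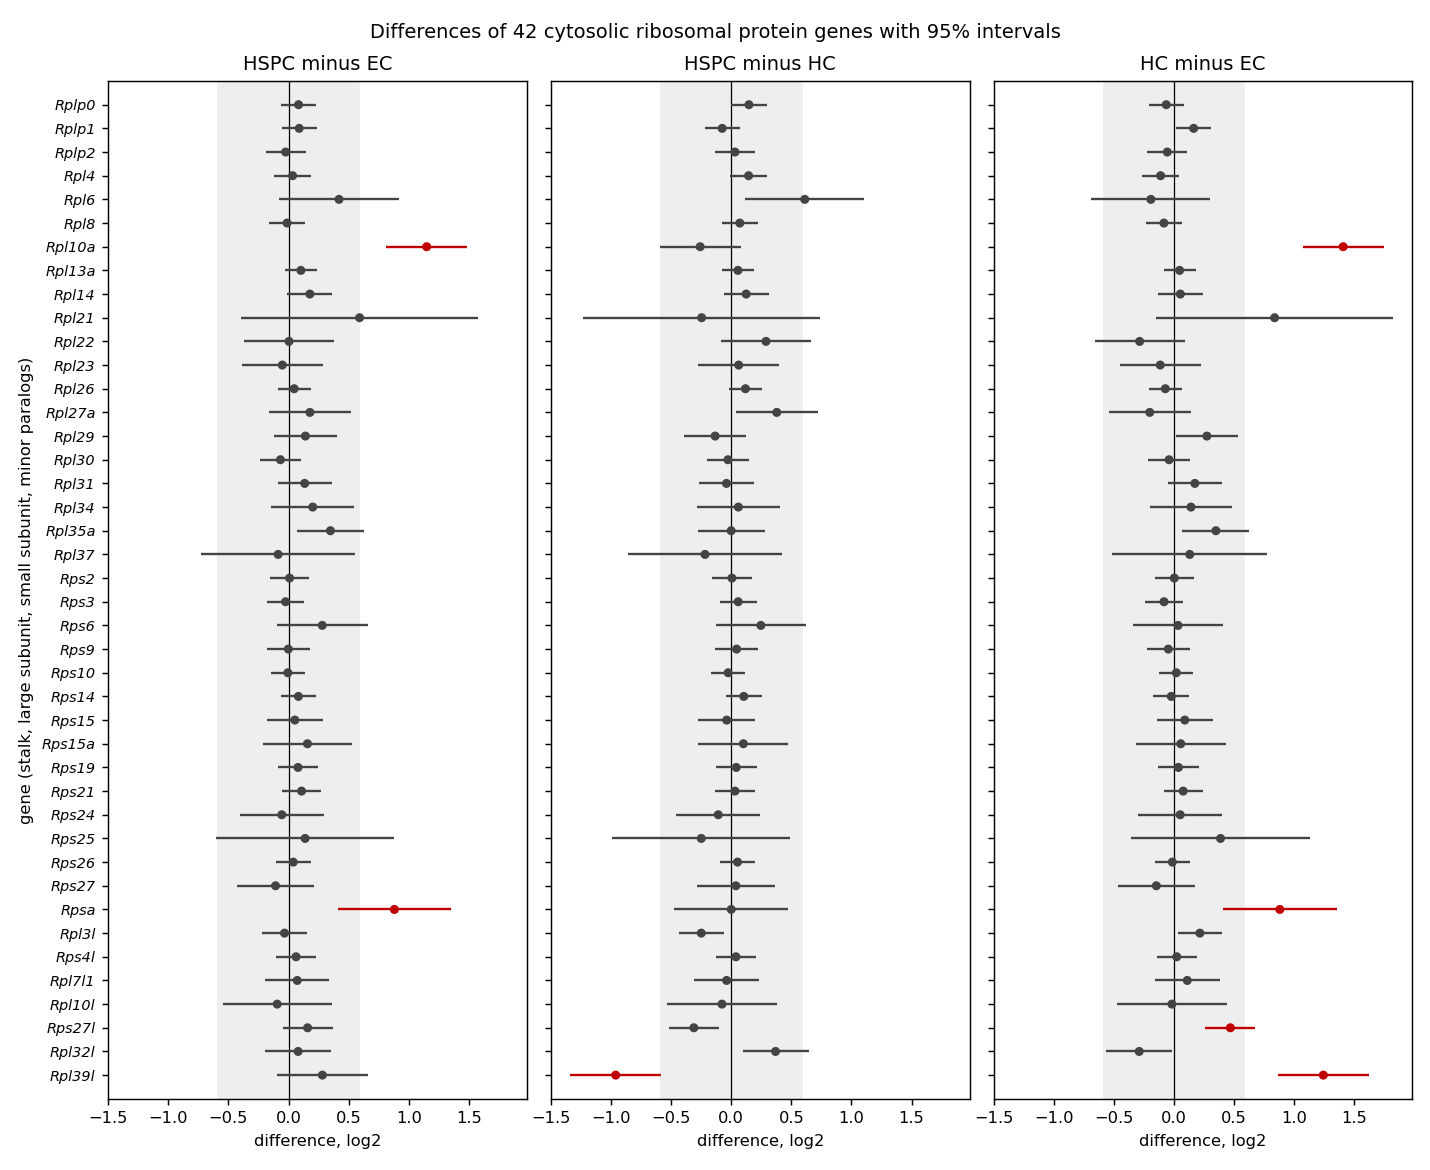
Differences in log2 expression of the 42 members in the 3 comparisons, with 95% intervals from limma. Red marks an adjusted p under 0.05, and the grey band spans a difference of 1.5-fold either way. Most points lie near 0 inside the band, while Rpl10a, Rpsa and the uncalled Rpl21 stand to its right in both comparisons with EC.

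For most members, as for most of all genes, the data bound the difference tightly. The 95% interval of the difference lay wholly within 1.5-fold either way for 33 of 42 members between HSPC and EC, for 32 between HSPC and HC and for 32 between HC and EC. Among all genes the same held for 72.9%, 73.6% and 66.4% in these comparisons, against 78.6%, 76.2% and 76.2% of the members. The median size of a member's difference, regardless of sign, was 0.09 on the log2 scale between HSPC and EC, 0.08 between HSPC and HC and 0.10 between HC and EC, where those over all genes were 0.12, 0.13 and 0.16. The median of the signed differences was 0.08, 0.03 and 0.04 in these comparisons, where those over all genes were 0.01, -0.03 and 0.05, and 30, 24 and 25 of the 42 differences were above 0. Arrays within HC and within EC differed by as much. The member median relative to each gene's own mean was 0.06, -0.01 and 0.02 on the HSPC arrays, -0.01, 0.04 and -0.06 on the HC arrays and -0.03, 0.03 and -0.06 on the EC arrays, so the 3 groups overlapped. The median signed difference between HSPC and EC is 0.01 when each array is centred on its median, and between HC and EC -0.02 after repeated quantile normalization.

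**Figure D2:**
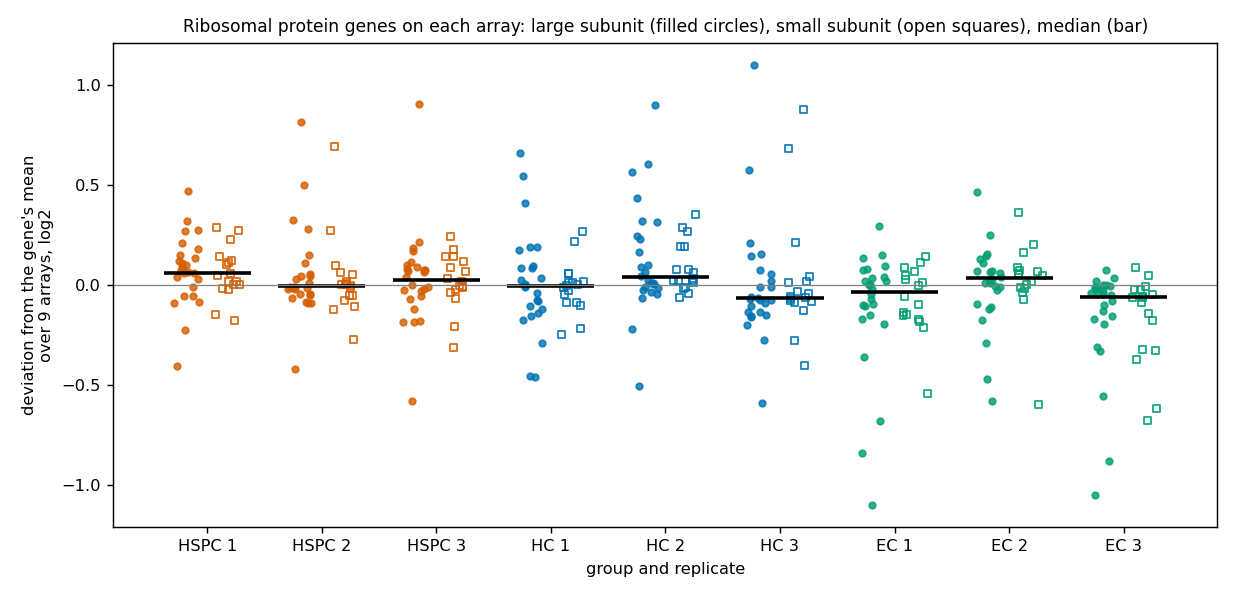
Deviation of each member from its own mean over the 9 arrays (log2), by array, with large subunit members as filled circles, small subunit members as open squares and the median over all 42 as a bar. The medians lie between -0.06 and 0.06 on every array and the groups overlap, while single members stray further.

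Members with strong signals varied little. Of the 42, 20 stayed above 10 on the log2 scale on all 9 arrays and 11 above 12, where the highest value of any gene was 13.29. Of the 23 members with a mean above 10, a level chosen after the values were seen, 0 passed the threshold between HSPC and EC, 0 between HSPC and HC and 1 between HC and EC. Of all 439 genes with such a mean, 84 (19.1%), 93 (21.2%) and 151 (34.4%) passed in these comparisons. The median within-group standard deviation was 0.07 for these 23 members and 0.11 for the 439 genes. Compression of strong signals near the top of the scale was not tested.

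The 3 proteins of the P stalk, which draws elongation factors to the large subunit, were among the steadiest. Rplp0 stood at 11.33, 11.28 and 11.32 in HSPC, 11.08, 11.24 and 11.17 in HC and 11.21, 11.26 and 11.20 in EC. The HSPC arrays lay above those of both other groups, by 0.15 over HC (adjusted p = 0.185) and 0.08 over EC (adjusted p = 0.513). Rplp1 stood at 13.002 ± 0.08 in HSPC, 13.08 ± 0.02 in HC and 12.91 ± 0.04 in EC (SD, n = 3 each), and Rplp2 at 12.55 ± 0.02, 12.52 ± 0.08 and 12.58 ± 0.09 in the same groups. None of their differences passed the threshold in limma. At an unadjusted p under 0.05, which 26.5% of all genes passed between HSPC and EC, 26.8% between HSPC and HC and 36.1% between HC and EC, 1 passed between HSPC and HC (Rplp0) and 1 between HC and EC (Rplp1).

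Several other large subunit genes showed the same narrow spread. Rpl4, which lines the exit tunnel, averaged 12.36 ± 0.07 in HSPC, 12.22 ± 0.06 in HC and 12.33 ± 0.04 in EC (SD, n = 3). Rpl26, at the tunnel's outlet, averaged 12.74 ± 0.05 in HSPC, 12.62 ± 0.05 in HC and 12.70 ± 0.02 in EC. Rpl8, which supports the peptidyl transferase centre, averaged 11.72 ± 0.05, 11.65 ± 0.08 and 11.73 ± 0.03. Rpl22, which T cell development requires in mice, spread more widely than these. It was 9.65, 9.28 and 9.49 in HSPC, 9.46, 9.31 and 8.78 in HC and 9.45, 9.51 and 9.45 in EC. HC replicate 3 alone was low, and the difference of HC from EC was -0.29 with a 95% interval of -0.66 to 0.09. After repeated quantile normalization Rplp0, Rpl4 and Rpl14 passed the threshold as higher in HSPC than in HC, and Rplp0 and Rpl4 as lower in HC than in EC.

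A few large subunit members moved more without passing the threshold. Rpl35a, a Diamond-Blackfan anaemia gene in humans, was 8.05, 7.79 and 8.02 in HSPC, 8.01, 8.08 and 7.77 in HC and 7.48, 7.81 and 7.53 in EC, with EC replicate 2 inside the range of the other groups. It stood above EC by 0.35 in HSPC (adjusted p = 0.097) and by 0.35 in HC (adjusted p = 0.0673). Rpl27a was 0.38 above HC in HSPC (adjusted p = 0.143), with values of 11.21, 10.65 and 10.91 in HSPC and 10.66, 10.51 and 10.46 in HC. Rpl6 was 6.75, 6.58 and 7.50 in HSPC, 6.46, 6.09 and 6.44 in HC and 6.55, 6.42 and 6.59 in EC. HSPC replicate 3 was the highest of the 9, and the difference of HSPC from HC was 0.61 (adjusted p = 0.104). Rpl21 had the widest spread of the 42, at 5.85, 6.56 and 5.17 in HSPC, 6.15, 6.34 and 5.82 in HC and 4.90, 6.21 and 4.69 in EC, and its interval between HC and EC ran from -0.15 to 1.83. Rpl37 was 5.37, 5.55 and 5.57 in HSPC, 5.14, 6.50 and 5.50 in HC and 5.62, 5.50 and 5.63 in EC, so HC replicate 2 stood apart.

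Among the small subunit genes Rpsa and the paralog Rps27l were called. Of the 17 members, 1 passed the threshold between HSPC and EC (Rpsa), 0 between HSPC and HC and 2 between HC and EC (Rpsa and Rps27l). At an unadjusted p under 0.05, 1 small subunit member passed between HSPC and HC, which was Rps27l. Rps2 and Rps3, at the entry of the mRNA channel, averaged 12.45 ± 0.04 and 11.73 ± 0.06 in HSPC, 12.44 ± 0.07 and 11.67 ± 0.06 in HC and 12.44 ± 0.09 and 11.76 ± 0.07 in EC (SD, n = 3). Rps14, whose loss underlies the anaemia of the human 5q- syndrome, averaged 12.44 ± 0.07, 12.34 ± 0.06 and 12.36 ± 0.04 in the same order of groups. Rps19, the gene most often mutated in Diamond-Blackfan anaemia in humans, averaged 10.54 ± 0.07, 10.49 ± 0.01 and 10.46 ± 0.11. Its difference of HSPC from EC was 0.08 with a 95% interval of -0.09 to 0.25. Of 20 listed Diamond-Blackfan anaemia genes 9 were measured, and 0 of the 9 passed the threshold in any comparison, with 1 at an unadjusted p under 0.05 between HSPC and EC and 1 between HC and EC, Rpl35a in both.

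Rps6, which the S6 kinases phosphorylate downstream of mTOR, was 10.66, 10.47 and 10.52 in HSPC, 10.37, 10.56 and 9.97 in HC and 10.22, 10.54 and 10.05 in EC. The groups overlapped, and its difference of HSPC from EC was 0.28 (adjusted p = 0.358). Rps25, which some viral and cellular internal ribosome entry sites need, was the least steady small subunit gene, at 9.23, 9.68 and 9.20 in HSPC, 9.19, 9.39 and 10.28 in HC and 9.20, 9.77 and 8.73 in EC. Its spread within HC and EC exceeded every difference between groups.

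Rpl10a showed the largest difference of the members with levels above background. The gene encodes the protein of the L1 stalk, the mobile arm of the large subunit beside the tRNA exit site. It stood at 7.49, 7.66 and 7.24 in HSPC, 7.83, 7.60 and 7.74 in HC and 6.07, 6.59 and 6.28 in EC. Every HSPC and HC array lay above every EC array, and HSPC and HC overlapped. Rpl10a was 2.22-fold higher in HSPC than in EC (log2 difference 1.15 ± 0.15 SE, adjusted p = 0.000906) and 2.65-fold higher in HC than in EC (1.41 ± 0.15 SE, adjusted p = 0.000105). Between HSPC and HC it differed by -0.26 with a 95% interval of -0.60 to 0.08 (adjusted p = 0.319). Both calls against EC held under every other normalization, filter, model and leave-one-out setting run. The comparisons with EC share the EC arrays.

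Rpsa followed the same pattern with a smaller difference. The gene encodes a protein at the back of the small subunit, also known as the laminin receptor precursor, and its mutation in humans causes congenital absence of the spleen. It stood at 6.84, 7.51 and 6.995 in HSPC, 7.09, 6.76 and 7.50 in HC and 6.28, 6.22 and 6.20 in EC. The EC arrays lay close together and below all others. Rpsa was 1.84-fold higher in HSPC than in EC (log2 difference 0.88 ± 0.21 SE, adjusted p = 0.019) and 1.84-fold higher in HC than in EC (0.88 ± 0.21 SE, adjusted p = 0.0117). HSPC and HC differed by 0.00, with a 95% interval of -0.47 to 0.47. The call between HSPC and EC was narrow. It was lost without HSPC replicate 2, where the difference was 0.68 (adjusted p = 0.0521). It was also lost without EC replicate 1 (0.90, adjusted p = 0.0526), 2 (0.87, adjusted p = 0.0572) or 3 (0.87, adjusted p = 0.0598), with the difference close to that over all arrays.

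The leukocyte markers given above are lowest in EC, as Rpl10a and Rpsa are, but separate HSPC from HC as well, where both genes overlap, and their part in these differences was not tested. Ribosomal protein genes also have many near-identical processed pseudogenes, so that a probe set can take up signal from more than 1 locus, and how far this holds for Rpl10a or Rpsa was not tested. Rpl10a and Rpsa, with means of 7.17 and 6.82 over all arrays, are among the 19 members with a mean at or under 10. The median within-group standard deviation was 0.21 for these 19 and 0.07 for the 23 members above 10. With both genes and the minor paralogs left aside, 0 members passed the threshold in any comparison (limma); at an unadjusted p under 0.05 these were 1 (Rpl35a) between HSPC and EC, 3 (Rpl6, Rpl27a and Rplp0) between HSPC and HC and 3 (Rpl29, Rpl35a and Rplp1) between HC and EC.

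**Figure D3:**
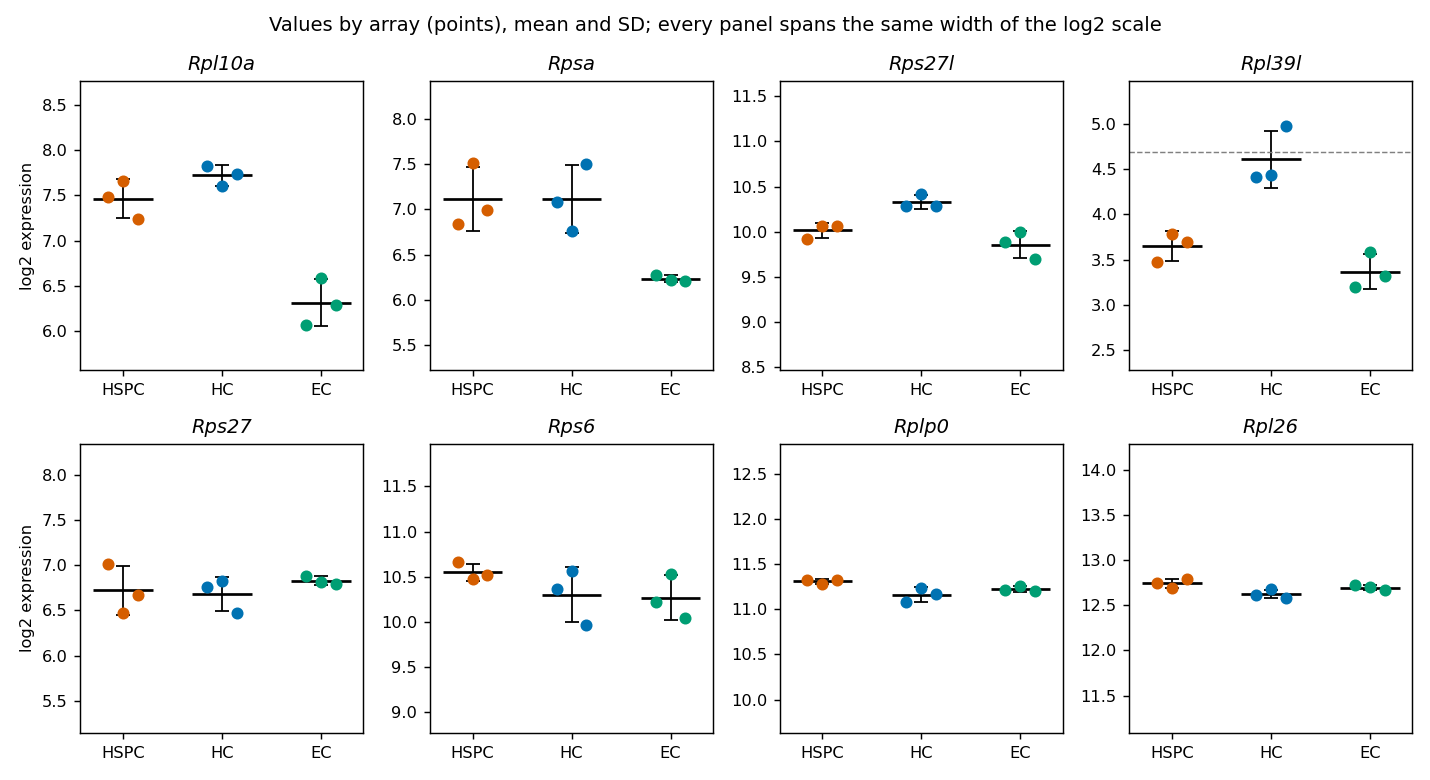
Log2 expression of 8 members on each array (points), with the mean and SD of 3 arrays, every panel spanning the same width of the log2 scale. Rpl10a and Rpsa stand higher in HSPC and HC than in EC, Rps27l and Rpl39l are highest in HC, and Rps27, Rps6, Rplp0 and Rpl26 show no called difference. The dashed line is the background level of 4.69.

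Of the 7 minor paralogs, Rps27l and Rpl39l passed the threshold in a comparison. Rps27l, a paralog of Rps27 that p53 induces, was 9.92, 10.07 and 10.07 in HSPC, 10.28, 10.42 and 10.28 in HC and 9.89, 9.995 and 9.70 in EC. All 3 HC arrays lay above all others. It was 1.38-fold higher in HC than in EC (log2 difference 0.47 ± 0.09 SE, adjusted p = 0.00415) and differed by 0.16 between HSPC and EC (adjusted p = 0.343). Its difference of HSPC from HC, -0.31 ± 0.09 SE, had an adjusted p of 0.0539 and passed the threshold in 5 alternatives, with adjusted p between 0.0357 and 0.0477. Neutrophil and macrophage markers are also highest in HC, as given above, and their part in this was not tested.

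For Rps27, the main gene of this pair, no difference was called. It was 7.01, 6.47 and 6.67 in HSPC, 6.76, 6.82 and 6.47 in HC and 6.88, 6.81 and 6.79 in EC, and between HC and EC it differed by -0.15 (95% interval -0.47 to 0.17). The log2 ratio of Rps27l to Rps27 within an array averaged 3.65 ± 0.15 in HC and 3.03 ± 0.14 in EC, a difference of 0.62 (SD, n = 3; exact permutation test, two-sided p = 0.1, the smallest that 3 arrays against 3 allow). In HSPC the ratio averaged 3.30 ± 0.35, with an exact p of 0.2 against HC and 0.3 against EC. The ratio serves to compare groups, since signals of different probe sets are not on 1 scale of abundance.

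Rpl39l, the paralog of the exit tunnel gene Rpl39 best known from male germ cells, differed between groups at signals near the background of the arrays. It stood at 3.47, 3.78 and 3.69 in HSPC, 4.42, 4.44 and 4.97 in HC and 3.20, 3.59 and 3.32 in EC. The background level was set at 4.69, which is the 95th percentile over 1286 receptor genes of the olfactory and vomeronasal families, and only HC replicate 3 exceeded it. In limma HC stood above EC (adjusted p = 0.000463) and HSPC below HC (adjusted p = 0.00574). With every group mean under the background level (3.65 in HSPC, 4.61 in HC and 3.37 in EC) no size of the difference is given, and the gene is not among those tested when dim probe sets are left out. Between HSPC and EC it did not pass (adjusted p = 0.359).

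The other minor paralogs did not pass the threshold in any comparison. Rpl3l, of striated muscle, lay under the background level on all 9 arrays, between 3.86 and 4.27. Rpl10l, of male germ cells, lay between 3.99 and 4.73. Rpl32l ranged from 5.19 to 5.48 in HSPC, from 4.69 to 5.12 in HC and from 5.17 to 5.30 in EC, with the HC arrays lowest (HC minus EC -0.29, adjusted p = 0.119). Rpl7l1 averaged 8.85 ± 0.09 in HSPC, 8.89 ± 0.08 in HC and 8.78 ± 0.24 in EC, and Rps4l, which RefSeq lists as a transcribed pseudogene, 9.38 ± 0.06, 9.34 ± 0.03 and 9.32 ± 0.11 (SD, n = 3). The main genes of these paralogs other than Rps27 were not analysed here, so that no further pair could be compared.

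To ask which members left the company of the rest, the median of the 42 members on an array was subtracted from every gene on it, and the fit was repeated. Rpl10a and Rpsa remained higher in HSPC than in EC (1.07, adjusted p = 8.42e-05, and 0.80, adjusted p = 0.0196), 2 of 42 members where 13.5% of all genes passed. They also remained higher in HC than in EC (1.22, adjusted p = 8.95e-06, and 0.69, adjusted p = 0.0281). The call of Rpsa in HC against EC was lost without HC replicate 1 or 3 or EC replicate 2 or 3, and that in HSPC against EC without HSPC replicate 2 or 3 or EC replicate 2. Rps27l was not called between HC and EC on this scale (0.28, adjusted p = 0.162). Rpl39l, under background, passed in HC against EC (adjusted p = 0.000277) and in HSPC against HC (adjusted p = 0.00436). Rpl32l was lower in HC than in EC (-0.48, adjusted p = 0.0268), which made 4 of 42 members where 24.4% of all genes passed. Between HSPC and HC the 3 members, where 12.4% of all genes passed, were Rpl39l, Rpl27a (0.49, adjusted p = 0.0418) and Rpl32l (0.48, adjusted p = 0.047). The plain median fell between members of different level and moved by 0.19 between HC and EC and by -0.11 between HSPC and HC. With the median of the members' deviations from their own means subtracted in its place, an alternative added after the values were seen, Rpl27a and Rpl32l were not called (adjusted p = 0.129 and 0.132 between HSPC and HC). Rpl10a, Rpsa, Rpl39l and Rps27l were then called in HC against EC, with Rpl35a (0.34, adjusted p = 0.0373), and Rpl39l and Rps27l between HSPC and HC.

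Other genes of translation were set beside the ribosomal proteins, to be read against the 16.5%, 14.6% and 27.4% of all genes that passed in the 3 comparisons. Rpl36al, a ribosomal protein gene that the symbol rule misses, stood at 12.14, 12.28 and 12.23 in HSPC, 12.39, 12.32 and 12.38 in HC and 11.94, 12.05 and 12.03 in EC, and was higher in HC than in EC (0.36 ± 0.07 SE, adjusted p = 0.00313). Of 76 genes for mitochondrial ribosomal proteins, which build the separate ribosome of mitochondria, 5 were higher and 0 lower in HSPC than in EC, 2 higher and 5 lower in HSPC than in HC, and 20 higher and 3 lower in HC than in EC (6.58%, 9.21% and 30.3% in all). Their median difference between HC and EC was 0.21 on the log2 scale, against 0.04 for the cytosolic members and 0.05 for all genes. Of 34 translation initiation factors, 0 passed between HSPC and EC in limma (3 at an unadjusted p under 0.05), 4 were higher and 0 lower in HSPC than in HC (11.8%), led by Eif4g3 (0.60, adjusted p = 0.00609), and 4 were lower and 0 higher in HC than in EC (11.8%). Of 12 genes listed with the elongation factors, not all of them factors themselves, 2 were higher and 1 lower in HSPC than in EC, 0 passed between HSPC and HC (3 at an unadjusted p under 0.05, limma), and 3 were higher and 1 lower in HC than in EC. Eef1a1, Eef1b2, Eef1d, Eef1g and Eef2 were not called in any comparison. The kinase gene Eef2k was higher than in EC in HSPC (0.45, adjusted p = 0.0145) and in HC (0.75, adjusted p = 0.000478). Eif5a2 was lower than in EC in HSPC (-0.38, adjusted p = 0.0255) and in HC (-0.39, adjusted p = 0.0129). Eefsec was higher in HC than in EC (0.51, adjusted p = 0.0317). Eef1e1, a scaffold of the multi-synthetase complex, was 0.67 above EC in HSPC (adjusted p = 0.00177) and 0.76 above EC in HC (adjusted p = 0.000366).

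**Figure D4:**
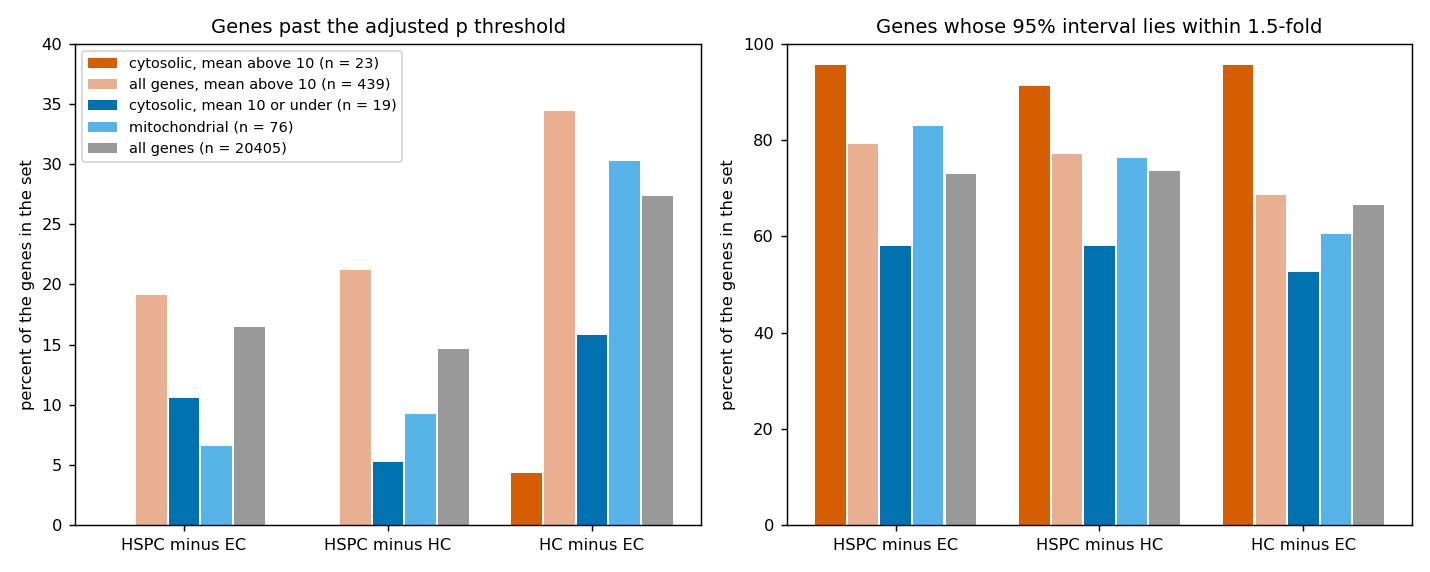
Percent of genes past the adjusted p threshold (left) and percent whose 95% interval of the difference lies within 1.5-fold either way (right), by comparison, for cytosolic members above and at or under a mean of 10, all genes with a mean above 10, mitochondrial ribosomal protein genes and all genes. Cytosolic members with a mean above 10 have the lowest share past the threshold and the highest within 1.5-fold in each comparison.

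Among 19 measured regulators of ribosomal protein synthesis, Mycn, a Myc factor that drives ribosome production, was higher in HSPC than in EC (1.07, adjusted p = 0.000820) and than in HC (2.32, adjusted p = 3.63e-05). Mycn was lowest in HC, at 6.24, 6.14 and 5.80 against 7.30, 7.29 and 7.36 in EC. That difference of -1.25 was the largest decrease among the 19 between HC and EC. Larp1, the binder of pyrimidine tracts, was higher than in EC in HSPC (0.43, adjusted p = 0.00418) and in HC (0.33, adjusted p = 0.00936). Called regulators not named here rose more than Larp1 in each of these comparisons. For Rragc, a GTPase that brings mTOR to the lysosome, HSPC stood below HC (-0.79, adjusted p = 0.000543) and HC above EC (1.09, adjusted p = 1.68e-05). In all, 4 of the 19 were higher and 0 lower in HSPC than in EC, 1 higher and 1 lower in HSPC than in HC, and 6 higher and 2 lower in HC than in EC (21.1%, 10.5% and 42.1%). Of 7 measured genes outside the ribosome that were listed for a pyrimidine tract in their mRNA, Gas5, the host of several small nucleolar RNAs, was higher in HSPC than in EC (0.63, adjusted p = 0.00857) and than in HC (0.59, adjusted p = 0.0151), and the filament gene Vim was lower in HSPC (-0.71, adjusted p = 0.00327) and in HC (-0.82, adjusted p = 0.000673) than in EC.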

How the data were processed

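Expression was measured in 9 sorted cell samples, 3 each of HSPC, HC and EC, grouped by the sort label. The deposited values are log2 expression per probe set, made with RMA (probe background removed, arrays quantile-normalized, probes summarized by median polish) and Partek, no versions given, per the submitters' processing notes. Genome build and probe set definitions were not given in the sources. Detection calls are lacking, and the number of arrays limits the precision. Of 21115 probe sets, 20405 have 1 gene symbol, 0 several and 710 none. All 42 members matched RefSeq by gene number with the same symbol.

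limma 3.58.1 in R 4.3.3 fitted a mean per group to all 9 arrays (6 residual degrees of freedom) for all named genes. Tests were two-sided, with Benjamini-Hochberg adjustment over all named genes and a threshold of 0.05. Adjusted p-values in the text are from this fit, except where an alternative setting or a subtracted median is named. The fit was tested on simulated data. Folds are 2 to the power of the log2 difference. By rule the text names up to 6 called members in each direction and all minor paralogs with their main genes. Of other lists it names up to 3 called genes a direction, which were not always those with the largest differences. Other members named for role, spread or size were chosen after their values were seen. The members, lists and rules were chosen with earlier results of these data known. Whether samples of the same replicate number were paired is not known, and the main fit treated them as unpaired. Deviations of same-numbered arrays correlated at -0.04 to 0.15, those of other arrays at -0.14 to 0.15. Correlations over so few arrays cannot exclude a shared sort or embryo pool. Alternatives were array centring, repeated quantile normalization, leaving out dim probe sets, trend and robust options, 6 arrays only, a replicate block, array weights, leaving out the minor paralogs and leaving out each array.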

Additional observations from a re-analysis of the deposited data

How the results depend on the processing

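The 3 arrays a group limit the precision, and 4 members lay at or under background on at least 1 array. Of 2007 combinations of a member, a comparison and an alternative, 1979 kept their side of the threshold, 4 lost the call (all Rpsa between HSPC and EC), 24 gained it and 0 reversed; 125 changed sign while called in neither. Between HSPC and HC gains were made by Rps27l, Rpl14, Rpl4 and Rplp0 (the last 3 after repeated quantile normalization), by Rpl6 and Rpl27a without HSPC replicate 2 and by Rpl3l without HC replicate 1. Between HC and EC they were made by Rpl4 and Rplp0 (repeated quantile normalization), Rpl35a (array weights, without HC replicate 3, without EC replicate 2), Rpl21 (replicate block, adjusted p = 0.0273, and without EC replicate 2, 0.0317), Rpl29 (6 arrays, without HSPC replicate 2), Rplp1 (trend and robust options), Rpl23 (without HC replicate 2) and Rpl3l (without HC replicate 1), and between HSPC and EC by Rpl35a without EC replicate 2 (adjusted p = 0.0435). Members called between HSPC and HC numbered 2 with arrays centred, 2 with trend and robust options, 4 after repeated quantile normalization and 0 with minor paralogs left out, against 1; between HC and EC 2 were called with minor paralogs left out, against 4. The median difference was 0.014 between HSPC and EC with arrays centred, and -0.016 between HC and EC after repeated quantile normalization. Members departing from the ribosomal protein median numbered 16 with array weights between HSPC and EC, 1 in the 6 arrays alone between HSPC and HC, and 8 with trend and robust options and 24 with array weights between HC and EC. The cause of these shifts was not tested. With a replicate block 2, 1 and 5 members (Rpl21 added) were called between HSPC and EC, HSPC and HC, and HC and EC, and 2, 4 and 6 departed from the median. Leaving out 1 array gave 1 to 2, 1 to 3 (3 without HSPC replicate 2) and 4 to 6 (6 without EC replicate 2) called members in these comparisons. It gave 1 to 2, 1 to 3 and 2 (without EC replicate 3) to 6 departing members, and medians of 0.044 to 0.079, 0.0081 to 0.062 and -0.025 (without HC replicate 2) to 0.074. Rpl39l was not tested with dim probe sets left out.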
